A study of Mus musculus with 12 samples.

Results

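The imprinted growth genes described here were Igf2, H19, Peg3, Mest, Dlk1, Sgce, Cdkn1c, Grb10 and Plagl1, which were taken as every probe set whose platform annotation carried 1 of these 9 symbols. They are 9 of the 8251 genes named singly on the array and were represented by 15 of 12422 probe sets, 14 with a single symbol and 1 annotated with both H19 and Mir675. Of the 15, 13 lay above the floor set for low intensities on at least 3 arrays and were tested, among 10331 tested in all, and each of the 9 genes kept at least 1. The other 2, a probe set of Igf2 (98622_at) and a probe set of Grb10 (95450_at), were at the floor on all 12 arrays. Expression had been measured in total RNA of skeletal muscle from mice aged 3 weeks, on 12 arrays in 4 groups of 3. Dysf_null_QF and Dysf_null_TA were QF and TA muscle of the line C57BL/10-SJL.Dysf, which the labels give as Dysf -/- and which, from knowledge of the study, carries the dysferlin mutation of the SJL strain. Control_QF and Control_TA were the same muscles of C57BL/10 mice, labelled Dysf +/+. From knowledge of the study, QF stands for the quadriceps femoris, a proximal muscle, and TA for the tibialis anterior, a distal one. The labels do not say whether the 3 arrays of a group hold RNA of different animals, and the p-values therefore cover the spread among arrays, part of which may be technical.

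Imprinted genes are transcribed mainly from the allele of 1 parent, and many of them set the size of the fetus and the newborn. Igf2, Peg3, Mest, Dlk1, Sgce and Plagl1 are expressed from the paternal allele, while H19, Cdkn1c and, in most tissues, Grb10 are expressed from the maternal allele. Genes of this group are known to be high in fetal muscle, to decline after birth and to return in regenerating muscle. All mice here were of a single age and without a labelled injury, so neither the decline nor the return could be examined. Dysf itself was the name of no probe set, and its transcript was not analysed here. The labelled tissue could be checked: the 13 measured muscle fibre markers, among them skeletal actin Acta1 and creatine kinase Ckm, had summed intensities of 152000 to 161000 in Dysf_null_QF, 164000 to 170000 in Control_QF, 141000 to 152000 in Dysf_null_TA and 150000 to 158000 in Control_TA. The QF groups did not overlap in this sum, although 0 of the 13 markers passed limma's test over all probe sets in either muscle. The QF arrays numbered 2 differed from the others: the median of an array's correlations with the rest was 0.876 for the Dysf_null array and 0.866 for the Control array, while it was 0.926 to 0.959 for the remaining 10.

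In the GRCm38.p6 reference, H19 (chromosome 7, 142575530 to 142578146) and Igf2 (142650768 to 142666816) are neighbours, and Cdkn1c (143458339 to 143461059) lies farther along the same chromosome, which also holds Peg3 (6703892 to 6730462). Mest (30733506 to 30748466) and Sgce (4674350 to 4747204) are on chromosome 6, as is Dysf, whose start is 53.3 Mb from that of Mest and 79.3 Mb from that of Sgce. Dlk1 is on chromosome 12 (109452485 to 109463336), Grb10 on chromosome 11 (11930499 to 12037428) and Plagl1 on chromosome 10 (13090832 to 13131694). Several of these transcripts also carry microRNAs. Mir675 lies inside H19 on chromosome 7 (142577064 to 142577147), and the shared annotation of probe set 93028_at means that its signal is given below under both names. Mir335 lies inside Mest. Their mature sequences from RefSeq (GRCm38.p6) are shown for these 2 host genes, since each is cut from the transcript of a gene described here, with the seed (bases 2 to 8) in capitals. No seed is shared among the 4, and the arrays gave no value for the mature microRNAs.
mmu-miR-675-5p: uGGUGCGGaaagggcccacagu
mmu-miR-675-3p: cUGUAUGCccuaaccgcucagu
mmu-miR-335-5p: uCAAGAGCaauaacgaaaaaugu
mmu-miR-335-3p: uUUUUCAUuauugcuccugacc

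Promoter windows of 300 bases, from 250 before to 50 after a RefSeq start, were found for 6 of the 9 genes, and H19, Sgce and Cdkn1c had no match. Of several windows of a gene, the one with the most CpG dinucleotides was taken. Below are those of the 2 genes on which the genotype comparison turns, with CpG dinucleotides, the bases at which imprints are laid down as DNA methylation, in capitals. The Mest window, chr6:30737800-30738099 on the plus strand, held 17 CpG dinucleotides, and 31.4% of all 32851 windows held as many or more. The Peg3 window, chr7:6730370-6730669 on the minus strand, held 13, and 37.9% of all windows held as many or more. Searched on both strands, the Mest window held the GC box GGGCGG, found in 35.7% of windows, and the Peg3 window held CCAAT, found in 37.4%. The letters TATAAA, found in 13.6% of windows, were in neither. DNA methylation was not measured.
Mest: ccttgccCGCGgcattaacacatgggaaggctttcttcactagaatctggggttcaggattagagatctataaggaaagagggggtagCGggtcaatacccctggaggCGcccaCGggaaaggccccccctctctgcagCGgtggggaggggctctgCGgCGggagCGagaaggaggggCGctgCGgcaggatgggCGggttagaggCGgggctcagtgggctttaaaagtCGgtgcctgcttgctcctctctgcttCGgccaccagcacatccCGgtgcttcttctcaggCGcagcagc
Peg3: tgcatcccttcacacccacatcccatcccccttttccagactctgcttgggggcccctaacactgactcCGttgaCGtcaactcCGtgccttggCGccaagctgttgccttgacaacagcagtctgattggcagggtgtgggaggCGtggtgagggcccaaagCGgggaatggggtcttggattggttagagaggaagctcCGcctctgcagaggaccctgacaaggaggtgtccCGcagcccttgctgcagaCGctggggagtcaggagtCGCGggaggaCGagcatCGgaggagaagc

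Whether these genes differ between Dysf_null and Control mice was asked in each muscle and in the average of both. The genotypes were compared between different lines, so lack of dysferlin cannot be told apart from other SJL DNA carried with the mutation. Mest and Sgce lie on the same chromosome as Dysf, and the part of such DNA in the differences was not tested. Mest, Sgce and 1 of 3 probe sets of Peg3 were higher in Dysf_null than in Control muscle in QF and in TA, with no array of a control group reaching any array of the Dysf_null group of the same muscle. Averaged over both muscles, that Peg3 probe set rose by 0.45 ± 0.09 on the log2 scale (1.37-fold, limma adjusted p = 0.0313), which made it the 1 of 13 tested probe sets that passed. Mest had the largest averaged difference of the 13, 0.91 ± 0.21 (1.87-fold, adjusted p = 0.0638), and Sgce had 0.48 ± 0.14 (1.39-fold, adjusted p = 0.161). Over all probe sets 1.09% were called in that comparison, 0.784% were called higher and 0.31% lower. An unadjusted p under 0.05 was found for 4 of the 13 in limma's test, against 7.63% of all probe sets. Values below are log2 of the quantile-normalized intensity, differences are followed by their standard error (SE) in limma's model, with 3 arrays against 3, and a Benjamini-Hochberg adjusted p under 0.05 over the 10331 probe sets was called. Arrays of the same replicate number in a muscle deviated together, so the adjusted p with that number as a block is added for the imprinted growth genes where it changes a call, and for the other lists the number of calls it gives.

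**Figure D1:**
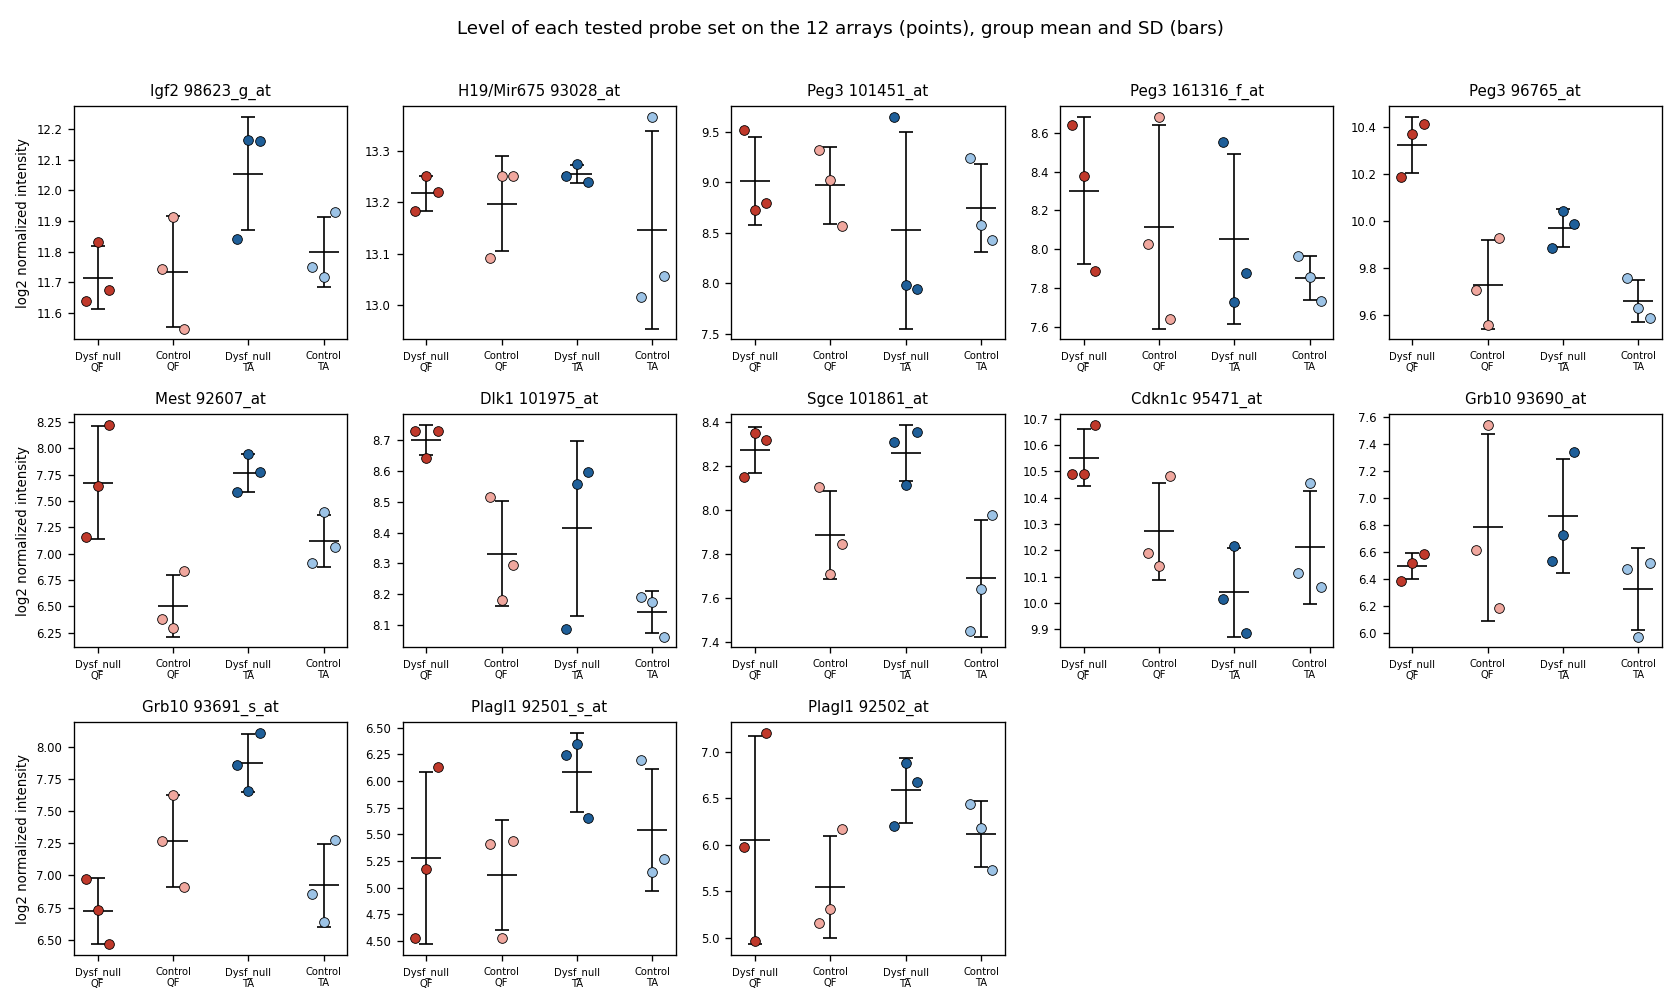
Log2 normalized intensity (vertical axis, its own range in each panel) of the 13 tested probe sets in the 4 groups (horizontal axis), with a point for each array and bars for the group mean and SD (n = 3). The Dysf_null points of Mest, Sgce and Peg3 96765_at lie above all Control points of the same muscle, while H19/Mir675 stays between 13.0 and 13.4 on all arrays.

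In QF alone 0 of the 13 probe sets passed limma's test and 2 had an unadjusted p under 0.05, against 0.455% called and 6.77% under 0.05 over all probe sets. In TA the test passed 0 and 4 had an unadjusted p under 0.05, against 0.407% and 4.82%. With the replicate block, Mest and Peg3 96765_at passed in QF, Grb10 93691_s_at passed in TA, and Mest, Peg3 96765_at and Sgce passed in the average. All were higher in Dysf_null, and the block called 1.68% of all probe sets higher in QF, 0.92% in TA and 2.71% in the average, and 0.958%, 0.619% and 1.88% lower. In QF 5 probe sets lay higher in Dysf_null with no overlap between the groups (Mest, Peg3 96765_at, Sgce, Dlk1 and Cdkn1c), against 4.08% of all probe sets, and on the deposited scaling 4 did, without Cdkn1c. In TA 5 did (Mest, Peg3 96765_at, Sgce and both tested probe sets of Grb10), against 6.92%, and 3 did in both muscles, against 1.29%. The median difference over the 13 was 0.19 in QF, 0.31 in TA and 0.20 in the average, while that over all probe sets was -0.01, 0.00 and -0.01. A difference above 0 was found for 10, 11 and 12 of the 13, against 48.5%, 48.8% and 47.6% of all probe sets. Of the 13, 12 were above the floor on every array, and Plagl1 92501_s_at on 10. Several of these probe sets share a gene, and the comparisons of QF and TA share 1 variance per probe set. The average is computed from the QF and TA differences, so its counts add no separate observation. The genes were chosen with earlier results of these data known, so these counts and medians are a description and not a test.

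Mest, also called Peg1, encodes a protein of the endoplasmic reticulum with an alpha/beta hydrolase fold. Its probe set gave 7.16, 7.64 and 8.22 in Dysf_null_QF, against 6.38, 6.29 and 6.84 in Control_QF. In TA it gave 7.58, 7.94 and 7.77 in Dysf_null_TA, against 6.91, 7.39 and 7.06 in Control_TA. The groups did not overlap in either muscle, and Control_QF held the lowest values. The difference was 1.17 ± 0.29 in QF (2.25-fold, adjusted p = 0.146, and 0.0113 with the block) and 0.64 ± 0.29 in TA (1.56-fold, adjusted p = 1, and 0.168 with the block). The averaged difference had adjusted p = 0.00497 with the block and 0.0472 on the deposited scaling without quantile normalization. It also passed without Dysf_null_QF 1 or without Control_QF 3 (adjusted p = 0.0352 and 0.0471). Of all probe sets, 0.697% had an averaged difference as large or larger. The order of the group means was 7.77 in Dysf_null_TA, 7.67 in Dysf_null_QF, 7.12 in Control_TA and 6.51 in Control_QF, and the 2 Dysf_null groups overlapped.

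Peg3 encodes a zinc finger protein, PW1, that marks muscle stem cells and interstitial progenitors. The probe set 96765_at gave 10.19, 10.37 and 10.41 in Dysf_null_QF, against 9.71, 9.56 and 9.93 in Control_QF. In TA the values were 9.88, 10.04 and 9.99 in Dysf_null_TA, against 9.76, 9.63 and 9.59 in Control_TA. Dysf_null_QF stood above every other group, and the 2 Control groups overlapped. The difference was 0.59 ± 0.13 in QF (1.51-fold, adjusted p = 0.0807, and 0.0156 with the block) and 0.31 ± 0.13 in TA (1.24-fold, adjusted p = 0.93). The call in the average had adjusted p = 0.00697 with the block. It was lost on the deposited scaling (0.42, adjusted p = 0.154), without the intensity trend of the variance (adjusted p = 0.173) and without both QF arrays numbered 2 (0.40, adjusted p = 0.0828). It held without Dysf_null_QF 1 or Control_QF 3 and was lost without any other single array (adjusted p up to 0.102). Without Control_QF 3 the difference in QF alone passed (0.69, adjusted p = 0.038).

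On the other 2 probe sets of Peg3 the groups overlapped in both muscles. The probe set 101451_at gave 9.52, 8.73 and 8.80 in Dysf_null_QF, against 9.32, 9.02 and 8.56 in Control_QF, and 9.65, 7.98 and 7.94 in Dysf_null_TA, against 9.24, 8.57 and 8.43 in Control_TA. The array numbered 1 was the highest of each group. Its averaged difference was -0.09 ± 0.29, and that of 161316_f_at, whose suffix marks probes that can match several sequences, was 0.19 ± 0.21 (limma adjusted p = 1 for each).

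Sgce encodes epsilon-sarcoglycan, a membrane protein related to the alpha-sarcoglycan of the dystrophin complex. It gave 8.15, 8.35 and 8.31 in Dysf_null_QF, against 8.10, 7.71 and 7.85 in Control_QF. In TA it gave 8.31, 8.11 and 8.35 in Dysf_null_TA, against 7.45, 7.64 and 7.98 in Control_TA. The groups of each muscle did not overlap, although the gap in QF was narrow, and the 2 Dysf_null groups did. The difference was 0.39 ± 0.19 in QF (adjusted p = 0.811) and 0.57 ± 0.19 in TA (adjusted p = 0.6), and the average passed only with the block (adjusted p = 0.047). The 9 measured genes of the sarcoglycan and dystrophin complex had a median averaged difference of -0.12, with 3 above 0 and 0 passed by limma or with the block. Sgcb, the beta subunit, gave -0.26 ± 0.15 (adjusted p = 0.865), and dystrophin itself, Dmd, gave -0.38 ± 0.23 (adjusted p = 0.891).

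Dlk1 encodes a membrane protein with epidermal growth factor repeats, similar to Notch ligands, that restrains fat cell formation and is known for muscle overgrowth in callipyge sheep. It gave 8.73, 8.64 and 8.73 in Dysf_null_QF, against 8.52, 8.18 and 8.29 in Control_QF. In TA it gave 8.09, 8.56 and 8.60 in Dysf_null_TA, against 8.19, 8.17 and 8.06 in Control_TA. The groups were apart in QF and overlapped in TA, where Dysf_null_TA 1 lay with the controls. The difference was 0.37 ± 0.18 in QF and 0.27 ± 0.18 in TA, and the average, 0.32 ± 0.12, had adjusted p = 0.457 (0.134 with the block). Of 10 measured Notch ligands, receptors and targets 0 passed in any genotype comparison, and the receptor gene Notch3 had an averaged difference of -0.25 ± 0.14 (adjusted p = 0.803).

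Plagl1, also called Zac1, encodes a zinc finger transcription factor known to regulate other imprinted genes. Its probe set 92502_at ranged from 4.97 to 7.21 in Dysf_null_QF, from 5.16 to 6.17 in Control_QF, from 6.20 to 6.88 in Dysf_null_TA and from 5.73 to 6.44 in Control_TA. The groups overlapped in both muscles, and the spread in QF was wide. The averaged difference was 0.49 ± 0.36 on this probe set and 0.35 ± 0.32 on 92501_s_at (limma adjusted p = 0.973 and 1).

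Igf2, the fetal insulin-like growth factor, and H19, the noncoding RNA beside it, did not pass in any comparison. On probe set 98623_g_at, Igf2 gave 11.64, 11.83 and 11.67 in Dysf_null_QF, against 11.74, 11.91 and 11.55 in Control_QF. In TA it gave 11.84, 12.16 and 12.16 in Dysf_null_TA, against 11.75, 11.72 and 11.93 in Control_TA. The Dysf_null_QF values lay within the range of Control_QF, and 2 of 3 Dysf_null_TA arrays were above all other arrays. The difference was -0.02 ± 0.13 in QF and 0.26 ± 0.13 in TA (limma adjusted p = 1 for each). The probe set 98622_at of the same gene had deposited intensities of 2.7 to 7.4, against 2908 to 4697 on 98623_g_at, so the probe sets of Igf2 disagreed on whether the transcript was present. The suffix of 98623_g_at marks probes that can be shared between sequences. The probe set annotated with H19 and Mir675 gave 13.18, 13.25 and 13.22 in Dysf_null_QF, against 13.09, 13.25 and 13.25 in Control_QF. It gave 13.25, 13.27 and 13.24 in Dysf_null_TA, against 13.01, 13.37 and 13.06 in Control_TA. Its averaged difference was 0.06 ± 0.08 (limma adjusted p = 1). On the deposited scaling the averaged difference was -9e-04.

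Cdkn1c encodes the CDK inhibitor p57, which halts the cell cycle of myoblasts as they differentiate. It gave 10.49, 10.49 and 10.68 in Dysf_null_QF, against 10.19, 10.14 and 10.48 in Control_QF. These groups did not overlap, but the gap was narrow, and on the deposited scaling they did, with intensities of 1464.3, 1208.2 and 1734.3 in Dysf_null_QF against 1174.4, 946 and 1538.9 in Control_QF. In TA it gave 10.02, 10.22 and 9.89 in Dysf_null_TA, against 10.12, 10.45 and 10.06 in Control_TA, with overlap. The difference was 0.28 ± 0.15 in QF (adjusted p = 0.851) and -0.17 ± 0.15 in TA (adjusted p = 1). Between arrays of the same number it was 0.30, 0.35 and 0.19 in QF and -0.10, -0.24 and -0.18 in TA.

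Grb10 encodes an adaptor protein that binds the insulin and IGF1 receptors and dampens their signal. On probe set 93691_s_at it gave 6.97, 6.73 and 6.46 in Dysf_null_QF, against 7.27, 7.62 and 6.91 in Control_QF. In TA it gave 7.86, 7.66 and 8.11 in Dysf_null_TA, against 6.86, 6.64 and 7.28 in Control_TA. Dysf_null_TA was above every other array, and the QF groups overlapped. The difference was -0.54 ± 0.28 in QF (adjusted p = 0.831) and 0.95 ± 0.28 in TA (1.93-fold, adjusted p = 0.399, and 0.0416 with the block). On 93690_at it was -0.29 ± 0.37 in QF and 0.54 ± 0.37 in TA, the same signs with wider spread.

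**Figure D2:**
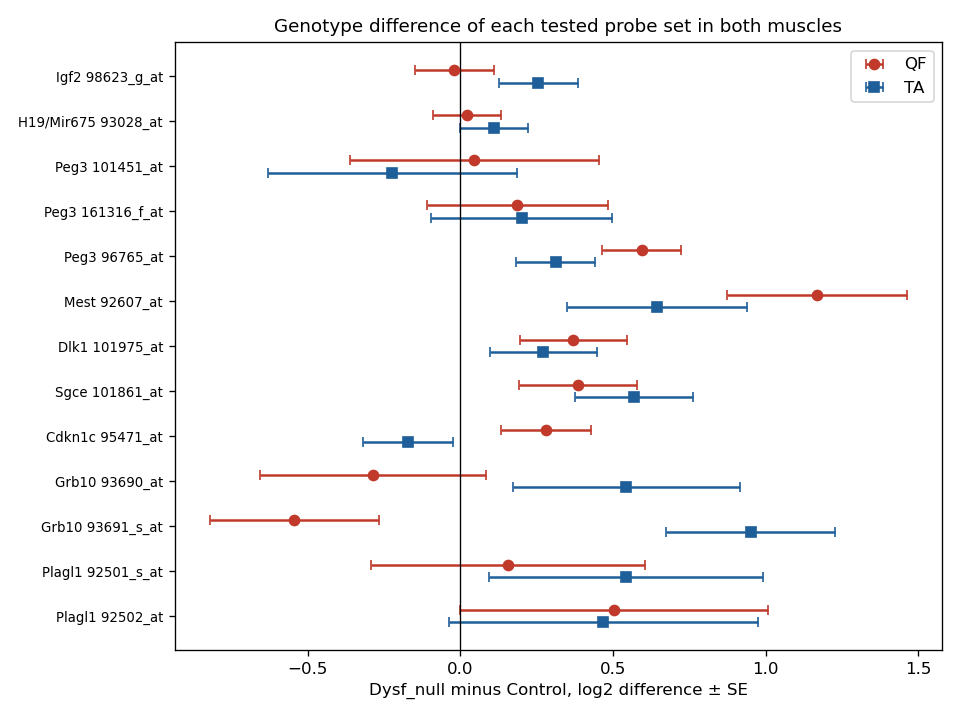
Difference of Dysf_null minus Control on the log2 scale (horizontal axis) with its SE for each of the 13 tested probe sets, in QF (circles) and TA (squares), 3 arrays against 3. Mest stands farthest right in QF at 1.17, and Grb10 and Cdkn1c have opposite signs in the 2 muscles.

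The interaction, which subtracts the genotype difference of QF from that of TA, asked whether the muscles responded differently. It passed limma's test for 0 of the 13 probe sets and had an unadjusted p under 0.05 for 2, against 0.0678% called and 3.05% under 0.05 over all probe sets. These 2 were Grb10 93691_s_at (1.5 ± 0.39, adjusted p = 0.613) and Cdkn1c (-0.45 ± 0.21, adjusted p = 1). Mest gave -0.53 ± 0.42, Peg3 96765_at -0.28 ± 0.18 and Sgce 0.18 ± 0.27 (limma adjusted p = 1 for each), so a difference between the muscles was not shown for any of them. For Grb10 93691_s_at and Cdkn1c the genotype difference had opposite signs in QF and TA for every replicate number, which held for 3.58% of all probe sets.

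**Figure D3:**
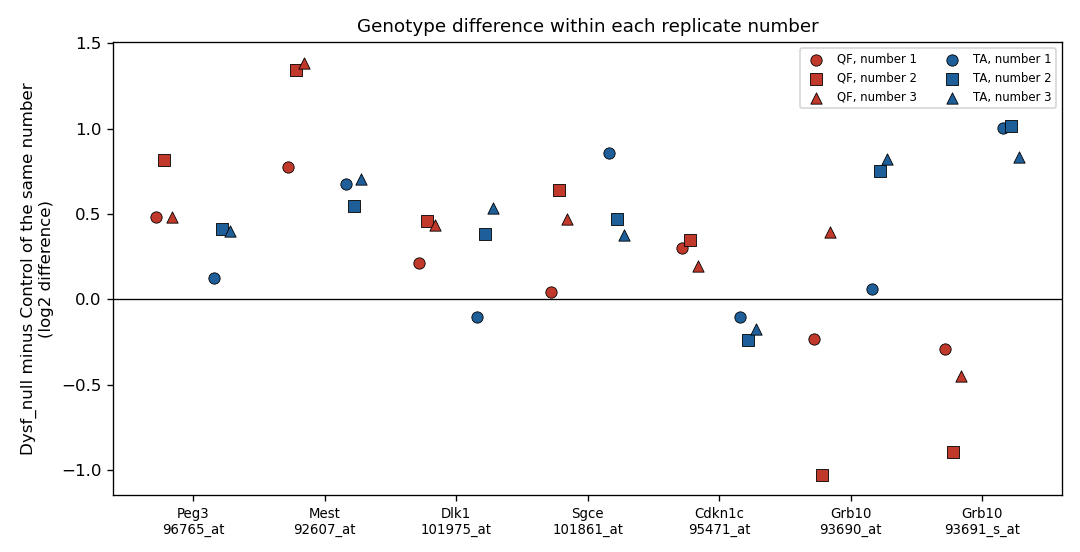
Dysf_null minus Control on the log2 scale (vertical axis) between arrays of the same replicate number, for the 7 probe sets whose groups did not overlap in at least 1 muscle (horizontal axis), in QF (red, left) and TA (blue, right). Mest, Peg3 96765_at and Sgce are above 0 for all 3 numbers in both muscles. Grb10 93691_s_at is below 0 in QF and above 0 in TA, and Cdkn1c the reverse. Where the groups of a muscle did not overlap, that alone fixes the sign for every number.

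The muscles themselves were compared within each genotype. In Control mice 0 of the 13 probe sets passed limma's test between TA and QF, and 0 had an unadjusted p under 0.05, against 0.736% called and 9.86% under 0.05 over all probe sets. Mest was the only 1 of the 13 whose groups did not overlap, with Control_TA above Control_QF by 0.62 ± 0.29 (adjusted p = 0.523), against 8.16% of all probe sets higher in TA without overlap. In Dysf_null mice 0 passed and 4 had an unadjusted p under 0.05 in limma's test, against 0.3% and 5.72%. Grb10 93691_s_at was higher in TA by 1.15 ± 0.28 (adjusted p = 0.2) and Igf2 98623_g_at by 0.34 ± 0.13 (adjusted p = 0.775), with no overlap for either. Cdkn1c had a difference of -0.51 ± 0.15 (adjusted p = 0.408) and Peg3 96765_at of -0.35 ± 0.13 (adjusted p = 0.753), also with no overlap, and Dlk1 was lower in TA on all arrays (-0.29 ± 0.18, adjusted p = 0.897). Groups without overlap made up 5.71% of all probe sets for higher and 4.51% for lower in TA of Dysf_null mice. These comparisons and those of genotype share their arrays.

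**Figure D4:**
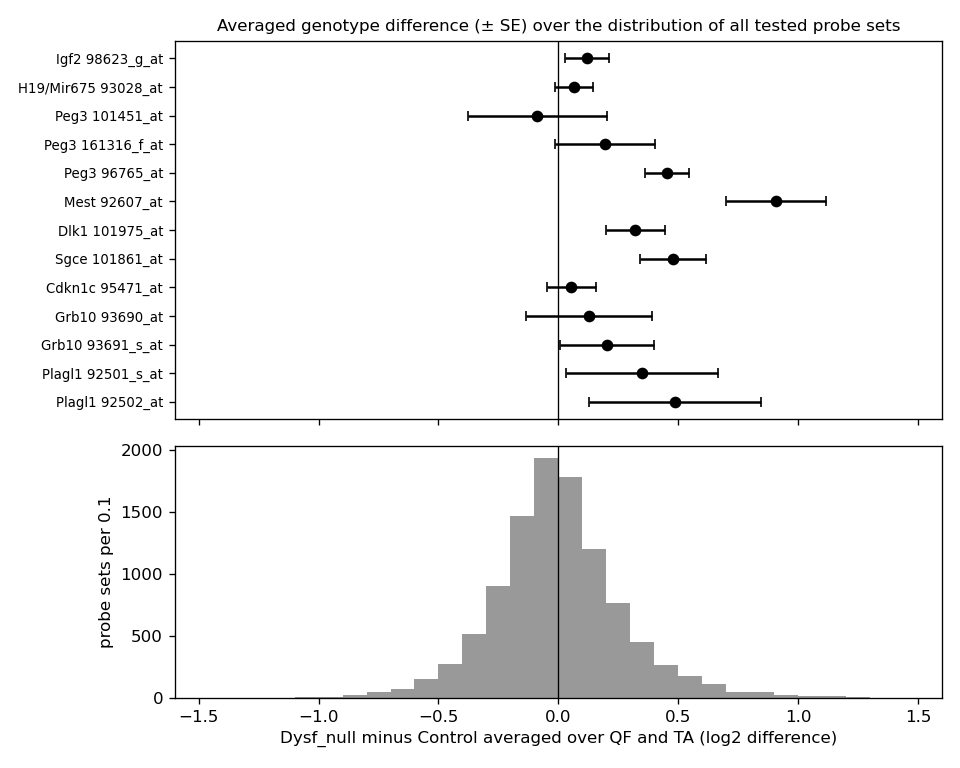
Averaged genotype difference on the log2 scale (shared horizontal axis) with its SE for the 13 probe sets (top), above the distribution of that difference over the 10331 tested probe sets (bottom, probe sets per bin of 0.1). Mest at 0.91, Plagl1 92502_at at 0.49, Sgce at 0.48 and Peg3 96765_at at 0.45 lie in the right tail, and the Igf2, H19/Mir675 and Cdkn1c probe sets lie near its centre.

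Other imprinted genes were described from a list of 55, of which 29 were measured. In the averaged comparison 0 passed limma's test, 16 had a difference above 0, and the median was 0.01, against -0.01 over all probe sets. With the block 2 rose, Ndn (0.55 ± 0.14, adjusted p = 0.0096 with the block and 0.101 without), the paternally expressed gene of necdin, and Gatm (0.84 ± 0.23, adjusted p = 0.00605 with the block and 0.135 without), an enzyme of creatine synthesis whose imprinting is known from placenta. In TA the block called Gatm higher (0.94 ± 0.32, adjusted p = 0.0373, and 0.622 without it). In QF alone the block called Ndn higher (0.60 ± 0.20, adjusted p = 0.0444, and 0.368 without it) and the amino acid transporter gene Slc38a4 lower (-0.63 ± 0.18, adjusted p = 0.0412, and 0.254 without it). Between the muscles of Dysf_null mice Meg3, the maternally expressed noncoding RNA of the Dlk1 domain, gave 1.76 ± 0.44 (adjusted p = 0.259).

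Genes of IGF signalling, in which Igf2 and Grb10 act, were followed with 24 measured members. In the averaged comparison 1 fell, against 0.31% of all probe sets, and 23 did not pass, with a median difference of 0.08. The 1 was Igfbp3, a carrier protein of IGFs in blood, which fell by 0.60 ± 0.11 (adjusted p = 0.0146), and in QF it fell by 0.98 ± 0.15 (adjusted p = 0.0129). In TA 0 of the 24 passed limma's test. The interaction of Igfbp3 was 0.76 ± 0.21 (limma adjusted p = 0.811), so its averaged fall rested mainly on QF. Igfbp4, another binding protein, had a difference of 1.24 ± 0.29 in QF (adjusted p = 0.106, and 0.0422 with the block), and Igfbp6 had 0.44 ± 0.12 in the average (adjusted p = 0.138, and 0.00635 with the block) and 0.56 ± 0.17 in TA (adjusted p = 0.457, and 0.0225 with the block). Of 22 measured CDK inhibitors, cyclins and proliferation genes, the list that Cdkn1c belongs with, 1 rose in the average, Stmn1, a microtubule regulator of dividing cells (0.99 ± 0.19, adjusted p = 0.021), against 0.784% of all probe sets, with a list median of 0.20. The block called 2 higher in the average, adding the replication helicase gene Mcm5 (0.75 ± 0.35, adjusted p = 0.0197, and 0.645 without it), and Stmn1 in QF (1.29 ± 0.26, adjusted p = 0.00817, and 0.0587 without it). Of 21 measured genes of embryonic and regenerating muscle 0 passed limma's test in QF, TA or the average, and 9, 7 and 8 had a difference above 0. With the block 1 was called lower in QF, 2 in TA and 2 in the average. In TA these were the perinatal myosin gene Myh8 (-1.41 ± 0.30, adjusted p = 0.0375, and 0.101 without it) and the integrin gene Itga7 (-0.63 ± 0.26, adjusted p = 0.039, and 0.949 without it). The muscle transcription factor gene Myf6 was the 1 in QF (-0.50 ± 0.18, adjusted p = 0.0193, and 0.463 without it). In the average they were Itga7 (-0.53 ± 0.19, adjusted p = 0.00842, and 0.346 without it) and Myf6 (-0.29 ± 0.12, adjusted p = 0.0329, and 0.584 without it).

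Markers of connective tissue were higher in the same arrays as Mest, Peg3 and Sgce. Of 15 measured fibroblast and connective tissue markers, 7 rose in the average, against 0.784% of all probe sets, and 8 did not pass. All 15 had a positive difference in QF and in TA, against 48.5% and 48.8%, and the averaged median was 0.63. In QF 6 rose, Col6a3, Sparc, Postn, Fmod, Thy1 and Fstl1, and in TA 1, Fmod. Over all probe sets 0.455% and 0.407% were called there in either direction. With the block 12 markers were called higher in the average, 11 in QF and 5 in TA, against 2.71%, 1.68% and 0.92% of all probe sets. The 7 were Fmod (1.51 ± 0.18), Postn (1.05 ± 0.15), Col1a1 (0.92 ± 0.19), Fstl1 (0.73 ± 0.14), Sparc (0.72 ± 0.09), Col6a3 (0.51 ± 0.11) and Col5a2 (0.51 ± 0.11), which encode matrix proteins or secreted glycoproteins. The summed intensity of the 15 was 36100, 39900 and 49700 in Dysf_null_QF, against 21900, 23900 and 29600 in Control_QF. It was 37700, 52100 and 47300 in Dysf_null_TA, against 27600, 35900 and 33600 in Control_TA. The groups did not overlap in either muscle, and none of the 15 was at the floor on most arrays. The orders were alike in part. Control_QF, with sums of 21900 to 29600, held the lowest Mest values. Control_QF 1 had the lowest sum but, at 8.10, the highest Sgce value of the controls. Peg3 96765_at had a higher mean in Dysf_null_QF (10.32) than in Dysf_null_TA (9.97), where the largest sum was found. The sums of these 2 groups overlapped. The list was written with earlier results of these arrays known. Its part in the differences of Mest, Peg3 and Sgce was not tested, and in whole muscle more cells of a type and more RNA per cell cannot be told apart.

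**Figure D5:**
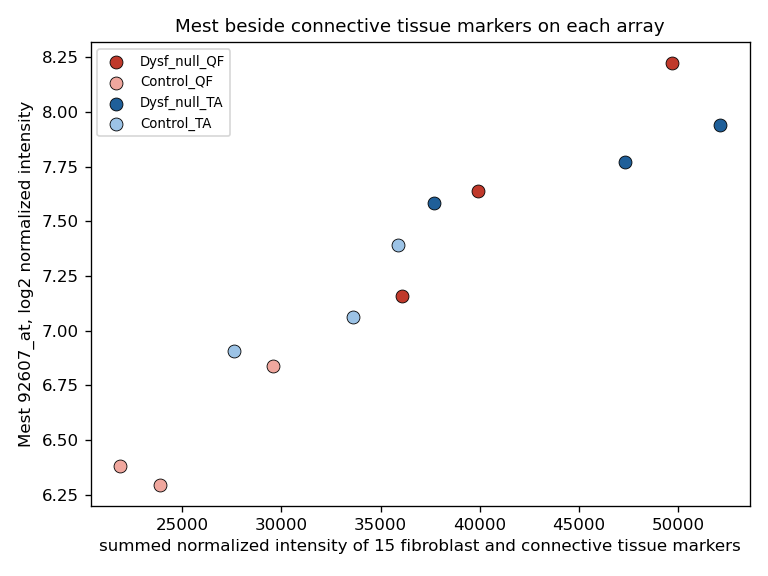
Mest level on the log2 scale (vertical axis) against the summed normalized intensity of 15 fibroblast and connective tissue markers (horizontal axis), with 1 point for each of the 12 arrays coloured by group. Control_QF, with sums of 21900 to 29600, holds the lowest Mest values, and all 6 Dysf_null arrays have sums of 36100 or more.

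Of 13 measured macrophage markers, 1 rose in the average, against 0.784% of all probe sets. It was lysozyme Lyz2 (0.70 ± 0.13, adjusted p = 0.0219), and the list median was 0.24. With the block 3 markers were called higher in the average, 3 in QF and 1 in TA, against 2.71%, 1.68% and 0.92% of all probe sets. Among them was the complement gene C1qa in each (0.61 ± 0.15 in the average, adjusted p = 0.0024, and 0.0812 without the block). The block called Cd68 lower in the average (-0.56 ± 0.13, adjusted p = 0.0174, and 0.0812 without it). Their summed intensity was 4480 to 5130 in Dysf_null_QF and 3430 to 3790 in Control_QF, and 4210 to 4790 in Dysf_null_TA and 3470 to 4230 in Control_TA. These groups overlapped in TA alone, and Aif1 was at the floor on most arrays. In TA the 1 marker that passed was Cd68, which fell by 1.27 ± 0.19 (adjusted p = 0.0104). Of 5 measured blood and erythroid markers 4 rose in the average, with and without the block (Alas2, Bpgm, Car2 and Hba-a1, list median 0.71), and of 7 bone and cartilage markers 2 did (Acp5 and Mmp13, list median 0.48), or 3 with the block, which added Ctsk. Over all probe sets 0.784% rose in the average, or 2.71% with the block. Of the 11 fat cell, 11 endothelial and 6 nerve and Schwann cell markers 0 passed limma's test in the average, and the list medians were -0.04, 0.04 and 0.12. In QF alone the fat cell marker Ucp1 passed limma's test (1.63 ± 0.265, adjusted p = 0.0181). Between the muscles, 4 fat cell markers were called lower in TA of Control mice and 3 in TA of Dysf_null mice. In the average the block called Ucp1 (0.82 ± 0.19, adjusted p = 0.0329, and 0.0639 without it) and the Schwann cell marker Pmp22 (0.37 ± 0.13, adjusted p = 0.00916, and 0.359 without it) higher. It called the fibre marker Ryr1 lower (-0.25 ± 0.09, adjusted p = 0.0433, and 0.376 without it). The interaction was -1.63 ± 0.37 for Ucp1 and -1.43 ± 0.27 for Cd68 (limma adjusted p = 0.349 and 0.125). The averaged difference therefore rested mainly on QF for Ucp1 and on TA for Cd68. The part of the cell types listed here in the differences of the imprinted genes was not tested.

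For each of the 9 genes, the measured probe sets of other genes with the most similar level were found by Pearson's r over the 12 arrays. Such an r is a description, since the arrays share their group differences and normalization and the best of at least 9149 probe sets was taken. Mest was most like Lyz2 (r = 0.95), then Scamp2 (0.95). Peg3 96765_at was most like Cks2 (0.89), a regulator of cyclin-dependent kinases, then Smc4 (0.88), a condensin subunit. Sgce was most like Rnf141 (0.93), then Pip4k2c (0.88). Dlk1 was most like Myl2 (0.86), the slow myosin light chain, then Arf3 (0.82). Cdkn1c was most like Bcas2 (0.94), then Hk1 (0.89), and Grb10 93691_s_at most like Crygs (0.87), then Snx2 (0.86). Igf2 98623_g_at was most like Tfrc (0.83), the transferrin receptor, then Polr2m (0.83). Plagl1 92502_at was most like Cav1 (0.98), the caveolin of caveolae, then Hnrnpr (0.96). H19/Mir675 was most like Ino80e (0.87), then Zdhhc6 (0.80).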

How the data were processed

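Total RNA had been hybridised to 12 single-channel arrays. The authors deposited linear intensities, 1 per probe set and array. After the lowest and highest 2% of an array were trimmed, the means were 199.7 to 199.9, so the deposited intensities had been scaled alike. How they were summarised and corrected for background, and with which software, is not given in the sources used here. After 66 control probe sets were left out, the other 12422 were quantile normalized, since the deposited medians differed 1.47-fold. Values under the 25th percentile (intensity 23.025, log2 4.53) were raised to it as a floor, and the 10331 probe sets above it on at least 3 arrays were tested. Names came from the platform annotation (10833 probe sets with 1 symbol, 396 with several, 1193 with none). Looking them up in GRCm38.p6 RefSeq changed 0.

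A model of the 4 group means over all 12 arrays was fitted (limma 3.58.1, R 4.3.3, 8 residual degrees of freedom, intensity trend, two-sided), with Benjamini-Hochberg adjustment over the 10331 probe sets. Precision was limited by the number of arrays, with a median SE of 0.32 for a difference between 2 groups. Same-numbered arrays of both genotypes, numbered in the labels, had correlated deviations from their group means. The correlations were 0.39, 0.71 and 0.66 in QF and 0.18, 0.11 and 0.23 in TA, all over 0.1. A fit with the number as a block within a muscle was therefore added as an alternative for the genotype comparisons. For the comparisons of muscles the block was the number within a genotype, and for the interaction the number over all 4 groups. Between muscles the correlations were not all over 0.1, so they gave no such reason for these blocks. The main model has no block, and every p-value not given as with the block comes from it.

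The genes and all lists were chosen with earlier results of these data known. Every probe set of the 9 genes was named, whatever its value. From each further list the genes that limma's test called in a genotype comparison were named, or else up to 2 with the smallest p. Genes called only between the muscles were not named. A gene of a list was represented by its probe set of highest mean level. Genes named for a call made by the block alone were chosen after their values were seen. The alternatives were the deposited scaling, a floor at the 10th percentile, no filter, no trend, the block, and leaving out arrays. Python 3.11.15 with matplotlib 3.10.9 drew the figures.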

Additional observations from a re-analysis of the deposited data

Results flagged for a closer look

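For 2 probe sets the genotype difference had opposite signs in the 2 muscles for every pair of arrays with the same number, which held for 3.58% of all tested probe sets. For Grb10 93691_s_at the difference of TA less that of QF was 1.5 ± 0.39 (limma adjusted p = 0.613, and 0.662 with the replicate block). For Cdkn1c 95471_at it was -0.45 ± 0.21 (limma adjusted p = 1 with and without the block). The test of the difference between the muscles therefore passed for neither.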

How the results depend on the processing

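Counts of called probe sets moved more than the differences did. With the replicate block, the numbers of probe sets called were 273 against 47 in QF, 159 against 42 in TA, 474 against 113 in the average, 32 against 76 between muscles in Control and 18 against 31 in Dysf_null mice. Of the imprinted growth genes' probe sets it called 2 in QF, 1 in TA and 3 in the average, against 0, 0 and 1, and it changed no other call among them. Between muscles, same-numbered arrays had correlations of -0.14 to 0.12. The labels do not say whether such arrays come from the same animal, and these correlations cannot tell. Without the intensity trend the counts were 7 in QF, 56 in the average and 42 between muscles in Control, and 0 of the imprinted probe sets in the average. Without both QF arrays numbered 2 the count was 2 in QF, and 0 of the imprinted probe sets passed in the average. On the deposited scaling 1 passed in the average, as in the main analysis, but it was Mest and not Peg3 96765_at.

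Leaving out 1 array gave 21 to 82 calls in QF, 14 to 45 in TA, 58 to 132 in the average, 35 to 147 between muscles in Control, 19 to 38 in Dysf_null mice and 4 to 8 for the interaction. It gave 0 to 1 imprinted probe sets in QF, 0 to 2 in the average and 0 in the other 4 comparisons. Leaving out an array can only keep or raise the number of probe sets without overlap, so it could not test that number. In TA the 5 became up to 8 without Dysf_null_TA 1, and in QF the 5 stayed at 5. On the deposited scaling the number in QF was 4.

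Signs reversed only for differences that did not pass in the main analysis, among them Plagl1 92502_at in QF, whose difference was 0.50. In QF, without both QF arrays numbered 2, Igf2 98623_g_at gave 0.0096, Grb10 93690_at 0.0834 and Plagl1 92501_s_at -0.0892, and on the deposited scaling H19/Mir675 gave -0.027 in QF and -9e-04 in the average. Over single arrays left out, the QF ranges were -0.113 to 0.068 for Igf2, -0.0326 to 0.0469 for H19/Mir675, -0.21 to 0.22 for Peg3 101451_at, -0.0503 to 0.47 for Peg3 161316_f_at, -0.58 to 0.0936 for Grb10 93690_at, -0.27 to 0.53 for Plagl1 92501_s_at and -0.074 to 1.04 for Plagl1 92502_at. The TA ranges were -0.78 to 0.0671 for Peg3 101451_at and -0.0497 to 0.36 for Peg3 161316_f_at, and the averaged ranges -0.37 to 0.0565 for Peg3 101451_at and -0.0207 to 0.32 for Grb10 93690_at. The averaged differences of Mest (0.77 to 1.04), Sgce (0.41 to 0.55) and Peg3 96765_at (0.40 to 0.50) stayed above 0 under all 18 alternatives. Their groups did not overlap in either muscle, so leaving out arrays could not have reversed these signs. The block, the lack of a trend and the lack of a filter leave the differences as they are. The cause of the reversed signs and changed calls was not tested.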
